A study of Mus musculus with 10 samples.

Results

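The pro-survival members of the BCL2 family were described here at the level of chromatin, across 4 histone marks in mouse neutrophils. The 8 genes were Mcl1, Bcl2, Bcl2l1 (the gene of BCL-XL), Bcl2l2 (BCL-W), Bcl2l10 (DIVA, described elsewhere with both survival and death roles), and the Bcl2a1 copies Bcl2a1a, Bcl2a1b and Bcl2a1d (A1). They were taken by name, as every consensus peak whose deposited nearest gene is a member. This rule uses no measured value, but the members were chosen with earlier results of these data known. This gave 8 of the 20556 genes with a peak in any mark and 101 of 246468 peaks: 17 of 53500 for H3K4me3, 28 of 67733 for H3K27ac, 29 of 81980 for H3K4me1 and 27 of 43255 for H3K36me3. The study compared sorted, uncultured neutrophils of wild-type C57BL6 mice (WT) with those of mice lacking the long non-coding RNA Morrbid on that background (KO). ChIP-seq was done with 1 library per mark and genotype, 8 libraries in all. How the Morrbid allele was made, the age of the mice and whether animals were pooled are not given in the sources used here.

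Pro-survival BCL2 proteins hold the effectors BAX and BAK and the BH3-only activators in check, and so keep mitochondria intact. Neutrophils live briefly and are known to depend on MCL1, a protein with fast turnover, while the A1 genes are known as induced survival genes of blood cells. Morrbid is known in mouse myeloid cells as a repressor of the neighbouring gene Bcl2l11, which encodes the pro-apoptotic protein BIM. H3K4me3 marks active promoters, H3K27ac active promoters and enhancers, H3K4me1 enhancers and promoter flanks, and H3K36me3 transcribed gene bodies.

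Of the peaks counted to Gm14005, the name of Morrbid in the files, 8 of 14 (H3K4me3), 11 of 28 (H3K27ac), 12 of 22 (H3K4me1) and 17 of 35 (H3K36me3) stood at 1 read in the KO. Over all peaks the KO stood at 1 read in 23.9%, 13.0%, 8.86% and 1.57%, in the same order. The strongest such H3K36me3 peak held 811 normalized reads in the WT. The libraries held 2250264 to 14317664 reads in peaks, and the KO library was 3.85 times (H3K4me3), 4.56 times (H3K27ac), 5.87 times (H3K4me1) and 1.13 times (H3K36me3) as deep as the WT library. WT values therefore carry the larger counting error for the first 3 marks. In H3K4me3, 6 of 8 neutrophil marker genes had peaks, all 6 at or above the median gene, with summed signals of 15431 (WT) and 17187 (KO). The other 2, S100a8 and Ly6g, had no H3K4me3 peak counted to them. Cd3e, Cd3g and Cd8a of the T cell list had no H3K4me3 peak. The lists of the other cell types summed, WT against KO, to 11.8 and 14.9 (T cell), 73.0 and 72.0 (B cell), 638 and 496 (monocyte), 111 and 109 (eosinophil), and 513 and 563 (erythroid). In H3K27ac, 6 of 8 neutrophil markers had peaks (11213 and 10641), as did 4 of 5 monocyte symbols (1178 and 1276) and 3 of 5 eosinophil symbols (889 and 1092), all of them at or above the median gene. Adgre1 and Emr1 name the same gene, as do Siglecf and Siglec5. Of these pairs only Emr1 and Siglec5 had peaks. The part of such cells in the results was not tested. In these bulk samples, fewer cells carrying a mark and less mark per cell cannot be told apart.

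The 3 Bcl2a1 copies are near-identical, which bears on how far their values can be separated. The promoter sequences of the copies are shown first for this reason. They come from RefSeq on GRCm38.p6, whereas peak positions are on mm9. Capitals mark the bases that differ between copies or are missing from a copy, on the strand of the gene, at chr9:88956714-88956919 (plus strand), chr9:89199023-89199228 (plus strand) and chr9:88731851-88732050 (minus strand).
Bcl2a1a: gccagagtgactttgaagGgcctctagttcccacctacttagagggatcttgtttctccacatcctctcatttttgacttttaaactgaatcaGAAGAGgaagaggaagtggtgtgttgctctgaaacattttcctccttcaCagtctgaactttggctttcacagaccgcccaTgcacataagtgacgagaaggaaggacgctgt
Bcl2a1b: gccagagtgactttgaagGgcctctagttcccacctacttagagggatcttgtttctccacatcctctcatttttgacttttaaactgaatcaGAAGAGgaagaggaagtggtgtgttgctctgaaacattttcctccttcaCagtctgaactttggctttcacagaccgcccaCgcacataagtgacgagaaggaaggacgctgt
Bcl2a1d: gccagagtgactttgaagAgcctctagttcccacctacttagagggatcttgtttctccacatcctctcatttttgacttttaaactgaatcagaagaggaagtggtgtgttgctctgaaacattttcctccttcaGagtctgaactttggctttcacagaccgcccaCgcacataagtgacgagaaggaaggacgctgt
Bcl2a1a and Bcl2a1b shared 205 of 206 bases, with the substitution T175C, counted from 1 at the 5′ end of the Bcl2a1a sequence. Bcl2a1a and Bcl2a1d shared 197 of 200 aligned bases, with G19A, C143G and T175C, beside a run of 6 bases that Bcl2a1d lacks. The longest identical run was 174 bases between Bcl2a1a and Bcl2a1b and 84 bases between either and Bcl2a1d. How the authors treated reads that match several copies is not stated in the labels or tables, so the 3 copies are also given as a sum. All 3 promoters hold the letters GAGGAAGT, the core of a PU.1-type ETS site. As the copies are near-identical, this is not 3 separate observations. These letters occur on either strand in 2.44% of 32851 RefSeq promoter windows, which hold 250 bases before and the first bases after a start. Promoter windows were found for 7 of the 8 members. Patterns for STAT, C/EBP, NF-kB and cyclic AMP response sites were also searched in these windows, and none matched.

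The Mcl1 promoter is shown because the strongest H3K4me3 and H3K27ac peaks of any member lie over it. The 250 bases before its start, at chr3:95658471-95658720 on the plus strand of GRCm38.p6, hold 1 match to the GC box GGGCGG, in capitals on the opposite strand.
Mcl1: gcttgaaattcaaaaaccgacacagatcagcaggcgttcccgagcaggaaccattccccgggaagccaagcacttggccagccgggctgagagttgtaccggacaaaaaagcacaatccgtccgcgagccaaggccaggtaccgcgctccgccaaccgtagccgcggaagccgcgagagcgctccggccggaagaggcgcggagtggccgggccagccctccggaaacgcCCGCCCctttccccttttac
A GC box was found in 32.7% of promoter windows. The Bcl2 window held 7 of them, and the Bcl2l2 window and each Bcl2a1 window held 1.

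The members fell into groups by density, the normalized reads per kb over all peaks counted to a gene. Density depends on peak width and on which peaks are counted. Over the start alone, WT H3K4me3 was 147 (Bcl2l1), 119 (Bcl2) and 111 (Mcl1) per kb. Peaks in transcripts of other genes held 77.6% of the Bcl2 WT signal for H3K36me3. For Bcl2l10 they held 68.7% (H3K36me3) and 64.2% (H3K27ac). For H3K4me3 in the WT, Bcl2l1 (115 per kb), Bcl2 (110 per kb) and Mcl1 (91.2 per kb) stood highest, and counting intervals of neighbours in that order overlapped. Bcl2l2 followed at 59.7 per kb, and then Bcl2l10 (17.9 per kb), Bcl2a1a (14.5 per kb), Bcl2a1d (7.84 per kb) and Bcl2a1b (6.73 per kb), whose intervals overlapped from each to the next. The break in the order, where the intervals of neighbours did not overlap, lay between Bcl2l2 and Bcl2l10 in both genotypes, and in the KO another followed Bcl2l10.

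H3K27ac set Mcl1 apart from the rest. Its density of 123 per kb in the WT and 109 per kb in the KO lay above Bcl2l1, the next member, at 48.7 and 57.7 per kb, with intervals that did not overlap. Mcl1 was also the densest member for H3K4me1 (59.4 and 59.7 per kb) and H3K36me3 (46.6 and 49.7 per kb), again with no overlap with the next. The Bcl2a1 copies had 12.5 to 22.3 H3K27ac reads per kb in the WT but few H3K36me3 reads in the peaks counted to them. For H3K36me3, Bcl2a1a stood at 5.19 per kb in the WT, Bcl2a1b rested on 1 WT read and Bcl2a1d had no peak. The 2 Bcl2a1a peaks inside its own transcript stood higher, at 16.0 (WT) and 17.9 (KO) per kb, on 18 and 23 reads. In the Bcl2a1b transcript, 2 H3K36me3 peaks counted to Mthfs held 12 WT and 15 KO reads.

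**Figure D1:**
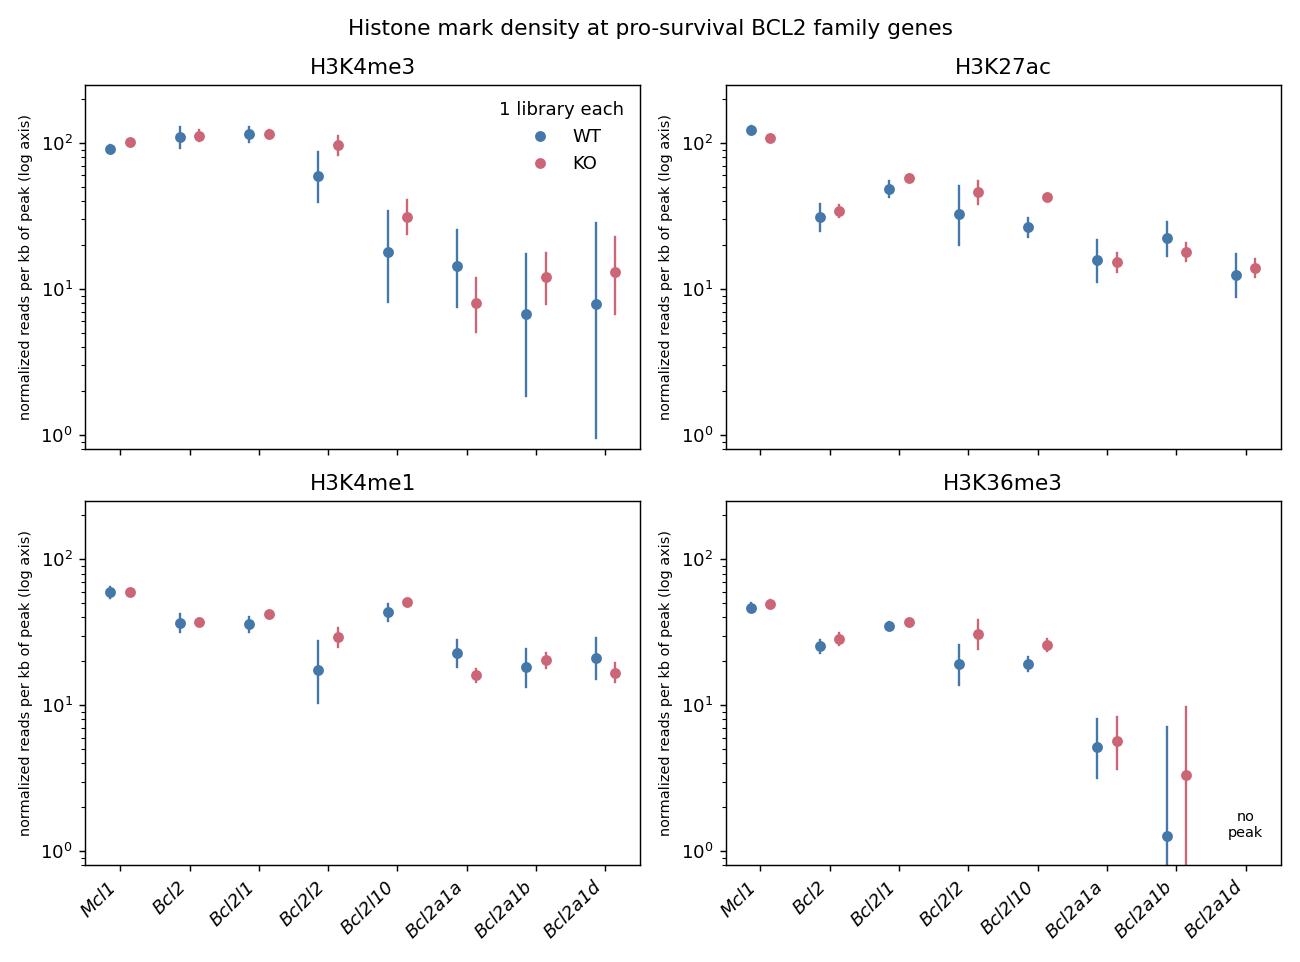
Normalized reads per kb of peak (log axis) for the 8 members in each mark, WT in blue and KO in red, 1 library each; points are the summed signal over all peaks counted to the gene, also those in transcripts of other genes, divided by their summed length, and bars are 95% counting intervals, drawn down to 0.8 at the lowest. Mcl1 is highest for H3K27ac, H3K4me1 and H3K36me3, and the Bcl2a1 copies are low for H3K4me3 and H3K36me3.

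Between genotypes most member values lay near those of genes with like signal. A gene's difference was taken as log2((KO + 1)/(WT + 1)) of its summed signal, centred on the median of itself and the 500 genes nearest to it in mean signal, with a 95% counting interval from the reads. With 1 library per group there is no replicate and no test, and the interval covers counting error only. Values of single peaks were centred on the peaks nearest in mean signal, and sums of several peaks on genes. A single-peak value and a sum are therefore not directly comparable. Of 31 values (8 members in 4 marks, less Bcl2a1d for H3K36me3), 23 (74.2%) had an interval that holds 0, against 85.6% of the values of all genes over the 4 marks. Of the 8 other intervals, 6 lay above 0 and 2 below. Outside the middle 95% of their neighbours were 4 of the 31 values (12.9%), against 4.88% over all genes. Wide intervals at few reads hold 0 more easily, so these shares do not show that the genotypes were alike. For H3K4me3, 1 of 8 members was at least 1.5-fold higher in the KO and 1 at least 1.5-fold lower, where 5.07% and 5.51% of all 18050 genes were. Both were Bcl2a1 copies with at most 12 WT reads. For H3K27ac, 1 member (Bcl2l10) was that much higher and 0 lower, against 5.77% and 6.97% of genes. For H3K4me1, 1 member (Bcl2l2) was higher and 0 lower, against 5.32% and 5.4%. For H3K36me3, 2 of 7 measured members (Bcl2l2 and Bcl2a1b) were higher and 0 lower, against 3.18% and 3.99%. The members' median was 0.24 for H3K4me3, 0.04 for H3K27ac, 0.07 for H3K4me1 and 0.19 for H3K36me3, where the median over all genes is 0 by construction. The H3K4me3 median counts the 3 near-identical Bcl2a1 copies singly, on 2 to 12 WT reads. Under other processing it ranged from -0.01, with the strongest peak of each gene alone, to 0.39, without centring. No shift of the family as a whole can be read from it.

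**Figure D2:**
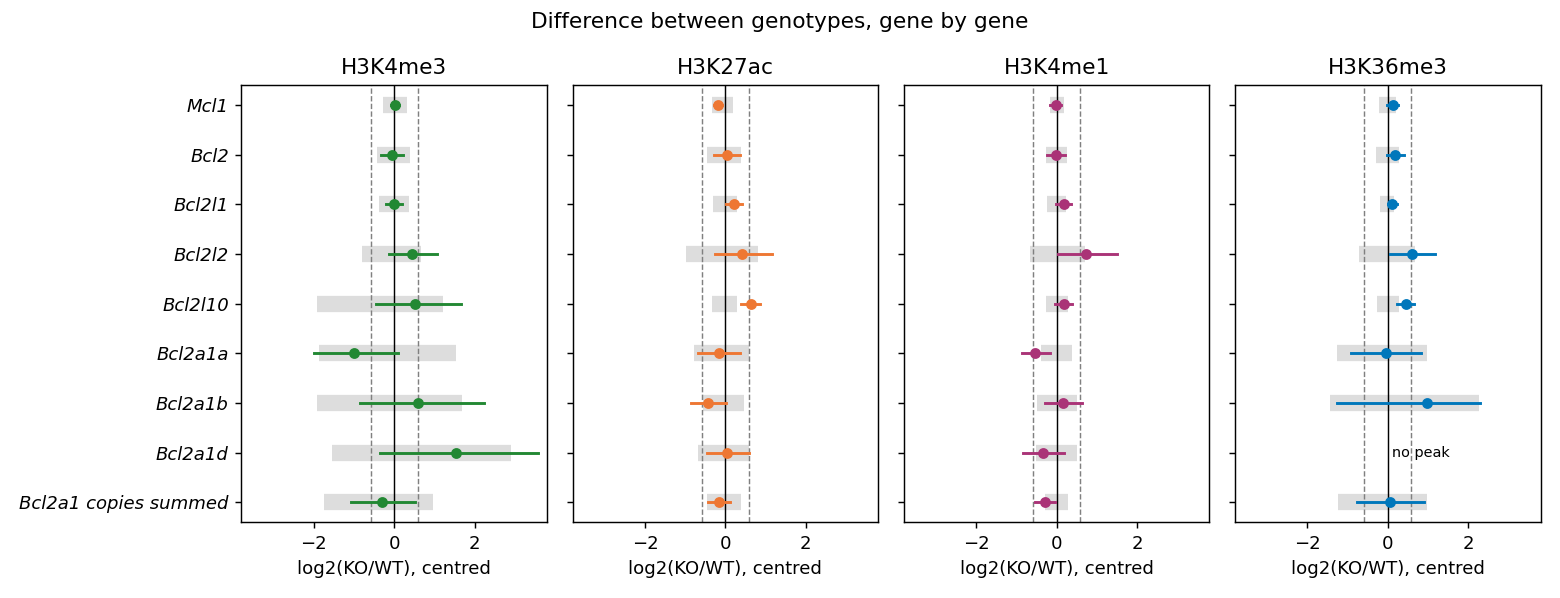
Centred log2(KO/WT) of each member and of the 3 Bcl2a1 copies summed, by mark; points with bars are values with 95% counting intervals, grey bands the middle 95% of the genes nearest in mean signal, and dashed lines a 1.5-fold difference. Bcl2l10 for H3K27ac lies past both its band and the line, as does Bcl2l2 for H3K4me1, which is just past its band.

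In the peaks counted to it, Mcl1 carried the most signal of all members for H3K4me3, H3K27ac and H3K4me1, with close values in both genotypes. For H3K4me3 it held 2556 normalized reads in the WT (1086 reads) and 2856 in the KO (4400 reads), rank 80 of 18050 genes in the WT, with a centred log2 of 0.03 (-0.07 to 0.12). For H3K27ac it held 2924 in the WT and 2593 in the KO, rank 150 of 17391 genes, with -0.18 (-0.28 to -0.09). The KO was thus lower in H3K27ac by more than counting error, yet the value lay inside the middle 95% of neighbours (-0.33 to 0.20) and ranked 446 from the top among them. For H3K4me1 the sums were 1997 and 2010, with -0.03 (-0.15 to 0.10), and for H3K36me3 842 and 899, with 0.12 (-0.02 to 0.26).

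The Mcl1 marks formed broad domains around its start, which the deposited distances place at position 95462642 of chromosome 3 (mm9, plus strand). A single H3K4me3 peak of 21266 bp, chr3:95460186-95481451, spanned the start and ran downstream of it. It ranked 71 in width among 53500 H3K4me3 peaks, and its signals of 2358 (WT) and 2570 (KO) gave a log2 of 0.00 (-0.10 to 0.10) when centred on the peaks nearest in mean signal. The H3K27ac peak over the start, chr3:95451987-95467950, was 15964 bp wide, and only 0.85% of H3K27ac peaks were as dense in the WT. Its signals were 2450 (WT) and 2117 (KO), with -0.14 (-0.24 to -0.03) when centred on peaks. Centred on genes of like signal, as the gene sum is, it was -0.23 (-0.33 to -0.12). H3K4me1 left the start free, with one domain ending 513 bp before it (1067 and 994 normalized reads) and another beginning downstream (931 and 1016). Their log2 values were -0.13 (-0.30 to 0.05) and 0.10 (-0.09 to 0.29). H3K36me3 over the gene, chr3:95463265-95471966, was 544 in the WT and 627 in the KO, with 0.23 (0.07 to 0.40), at the upper part of its neighbours' middle 95% (-0.26 to 0.25). The smaller H3K4me3 peak chr3:95448663-95450075 upstream held 15 WT reads and 118 KO reads, with 0.78 (0.02 to 1.63), inside its neighbours' -0.78 to 0.83.

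Bcl2l1 had close promoter values in both genotypes and a higher H3K27ac sum in the KO over the intron peaks counted to it, a set picked after its values were seen. Its start lies at position 152656452 of chromosome 2 (mm9, minus strand). H3K4me3 over the start was 638 (WT) and 622 (KO), with -0.03 (-0.22 to 0.17), and H3K27ac over the start was 413 and 410, with -0.05 (-0.31 to 0.22). The 5 other H3K27ac peaks counted to Bcl2l1, all inside its transcript, summed to 303 in the WT and 438 in the KO, with 0.46 (0.17 to 0.76). Every one of these 5 peaks lay above 0, from 0.19 to 0.66, and the strongest, chr2:152628845-152632878, held 51 WT and 340 KO reads with 0.49 (0.07 to 0.94). The gene sum for H3K27ac, 716 in the WT and 848 in the KO, gave 0.21 (0.02 to 0.41), rank 31 among its neighbours and inside the middle 95% (-0.31 to 0.29).

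Much of the Bcl2l1 chromatin is counted to another gene. Peaks further along its last introns lie nearer to the start of Cox4i2, and 3 such H3K27ac peaks held 983 (WT) and 1079 (KO), more than all peaks counted to Bcl2l1. Most of this was a single domain of 16673 bp, chr2:152604462-152621134, with 919 and 1020, and a log2 of 0.20 (0.03 to 0.37). The sum of the 3, centred on genes, gave 0.11 (-0.05 to 0.28), and the single peaks, centred on peaks, ran from -0.48 to 0.26. The 0.20 of the domain and the 0.11 of the sum thus rest on different centres. All 8 H3K27ac peaks away from the start summed to 1286 and 1517, with 0.21 (0.06 to 0.35), and with the start peak added the H3K27ac value of Bcl2l1 was 0.15 (0.03 to 0.28). H3K4me1 likewise had 1359 (WT) and 1461 (KO) in 3 such peaks, beside 887 and 1038 counted to Bcl2l1, and the gene's value was 0.17 (-0.01 to 0.37) without and 0.11 (-0.01 to 0.23) with them. The strongest H3K4me1 peak counted to Bcl2l1, chr2:152640568-152656073, was 493 and 597, with 0.25 (0.00 to 0.51). The one H3K36me3 peak counted to Bcl2l1, 39790 bp wide, was 1395 in the WT and 1488 in the KO, with 0.11 (0.00 to 0.22). The 4 H3K36me3 peaks counted to another gene were 344 and 317, with -0.10 (-0.32 to 0.13), and with them the value was 0.08 (-0.02 to 0.17), an interval that holds 0.

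Bcl2, the founding member of the family, was close to level in all 4 marks. Its start lies at position 108610867 of chromosome 1 (mm9, minus strand). H3K4me3 summed to 351 in the WT and 358 in the KO, with -0.06 (-0.32 to 0.21), nearly all of it in the peak over the start (348 and 351, with -0.07, interval -0.34 to 0.20). H3K27ac was 253 and 278, with 0.03 (-0.29 to 0.37), and H3K4me1 was 683 and 689, with -0.02 (-0.23 to 0.21). The peaks over the start were 135 and 132 for H3K27ac, with -0.07 (-0.52 to 0.40), and 119 and 141 for H3K4me1, with 0.22 (-0.29 to 0.77). Here too the distant part of the gene is counted elsewhere. In each of H3K27ac and H3K4me1, 9 peaks inside Bcl2 transcripts are nearest to Mir3473f. They held 716 (WT) and 710 (KO) for H3K27ac, and with them the Bcl2 value was -0.00 (-0.17 to 0.17). The H3K36me3 sum of 368 and 413, with 0.19 (-0.01 to 0.40), is mainly not that of Bcl2. Of its WT signal, 77.6% lay in the transcript of Kdsr, where the strongest peak, chr1:108617509-108627932, was 275 and 311, with 0.21 (-0.02 to 0.45). The 4 peaks inside Bcl2 held 65.5 and 75.8, with 0.14 (-0.35 to 0.63).

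Bcl2l2 was a small locus with few reads, and its values lay above 0 in all 4 marks. Its start lies at position 55502262 of chromosome 14 (mm9, plus strand), with 1 peak over it in each of H3K4me3, H3K27ac and H3K4me1. H3K4me3 was 65.9 in the WT (28 reads) and 106 in the KO (164 reads), with 0.45 (-0.13 to 1.07). H3K27ac was 55.1 (20 reads) and 77 (125 reads), with 0.41 (-0.27 to 1.15). H3K4me1 was 61.1 (18 reads) and 102 (173 reads), with 0.73 (0.04 to 1.5), just past its neighbours' middle 95% (-0.66 to 0.71). H3K36me3, in 2 peaks inside the gene, was 45.1 (42 reads) and 73.0 (78 reads), with 0.60 (0.05 to 1.17), inside its neighbours' -0.72 to 0.68. The intervals for H3K4me3 and H3K27ac hold 0, and those for H3K4me1 and H3K36me3 begin close to it.

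Bcl2l10 had no H3K4me3 peak at its start, yet held the member value farthest from its neighbours. The start lies at position 75195565 of chromosome 9 (mm9, plus strand), beside the end of Gnb5, and the nearest H3K4me3 peak ended 4830 bp away. Its 3 H3K4me3 peaks held 9 WT and 57 KO reads, with 0.53 (-0.46 to 1.65). H3K27ac summed to 476 in the WT (173 reads) and 764 in the KO (1240 reads), with 0.63 (0.40 to 0.87). This was rank 1 among its neighbours, outside their middle 95% (-0.33 to 0.29). Among genes at or above the median mean signal, as Bcl2l10 is, 0.31% were at least 1.5-fold higher. It is the highest of the 8 H3K27ac values described here, and the choice of the highest is not allowed for in its rank. The summed H3K27ac of the monocyte and eosinophil markers, before centring, was also higher in the KO. Centred, the monocyte list had a median of -0.00 and the eosinophil list 0.41. Of the monocyte markers, Ccr2 stood at 0.51 (0.15 to 0.88), Csf1r at -0.45 (-0.81 to -0.08), Cx3cr1 at -0.01 and Emr1 at 0.00. Of the eosinophil markers, Ccr3 stood at 0.44 (0.15 to 0.74), Prg2 at 0.41 (-0.01 to 0.85) and Siglec5 at -0.05. For H3K4me3 the medians were -0.44 (monocyte) and -0.30 (eosinophil). The part of such cells in the Bcl2l10 value was not tested.

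The H3K27ac difference came from several peaks. The peak over the start, chr9:75182870-75196167, was 306 in the WT and 461 in the KO, with 0.55 (0.26 to 0.85), and most of its 13298 bp lay before the start, in Gnb5. An intergenic peak downstream, chr9:75208653-75212270, was 162 and 270, with 0.66 (0.27 to 1.08). H3K4me1 at the intergenic peak was 255 and 272, with 0.07 (-0.28 to 0.44), and over all Bcl2l10 peaks it was 700 and 818, with 0.18 (-0.04 to 0.39). The H3K4me1 peak over the start was 51.0 and 62.1, with 0.20 (-0.57 to 1.07). H3K36me3 summed to 319 and 427, with 0.45 (0.23 to 0.66), rank 2 among its neighbours, and its peak over the start was 73.0 and 117, with 0.71 (0.28 to 1.16). Of its WT signal 68.7% lay in the Gnb5 transcript, as did 64.2% of the H3K27ac signal. Without the peaks in Gnb5 the H3K36me3 value was 0.16 and the H3K27ac value 0.74. Peaks counted to Gnb5 itself were 171 (WT) and 222 (KO) for H3K27ac, with 0.26 (-0.13 to 0.67), and 214 and 324 for H3K4me1, with 0.57 (0.20 to 0.97). Those counted to Mapk6, a neighbouring gene, were 132 and 261 for H3K27ac, with 0.86 (0.43 to 1.32). The higher KO signal thus was not limited to peaks counted to Bcl2l10, and these data do not assign it to a gene.

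**Figure D3:**
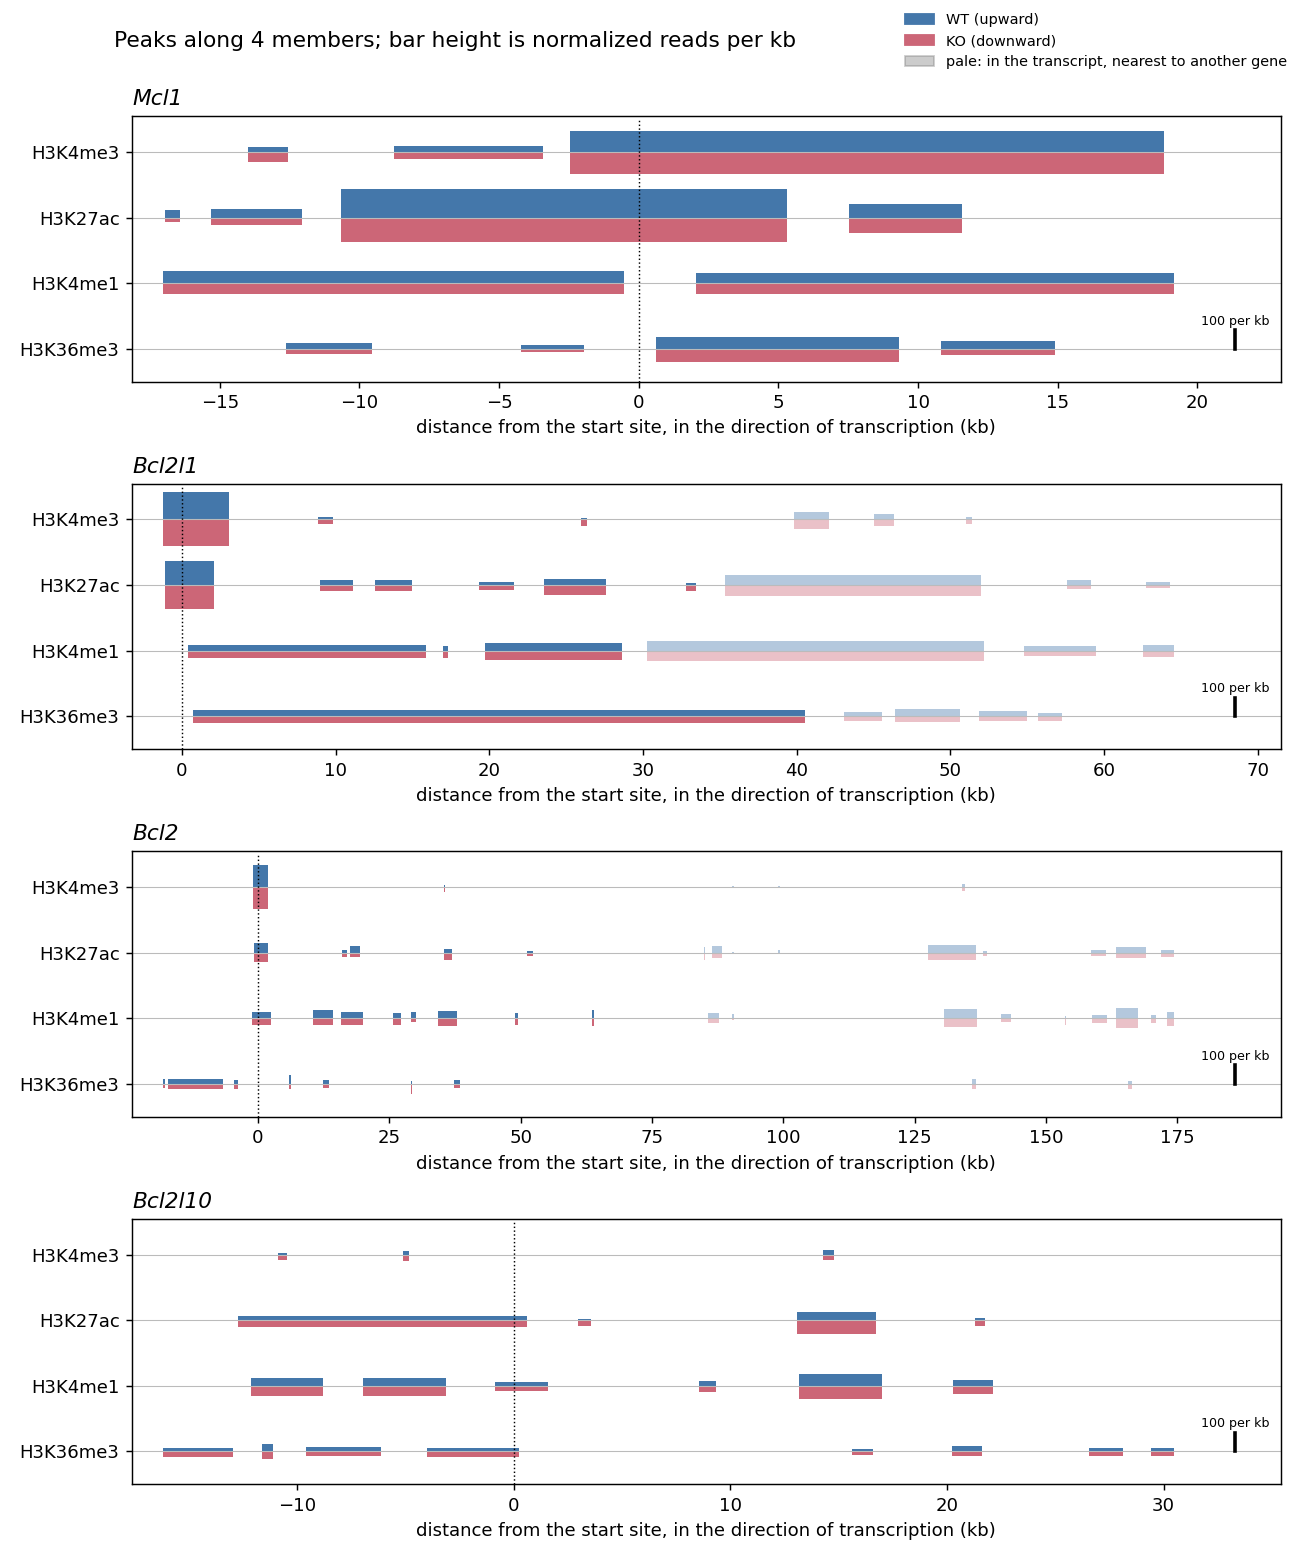
Peaks along Mcl1, Bcl2l1, Bcl2 and Bcl2l10 by distance from the start in kb, in the direction of transcription; bar height is normalized reads per kb, WT upward in blue and KO downward in red, and pale bars are peaks inside the transcript that the tables count to another gene. Broad domains surround the Mcl1 start, the Bcl2l1 introns carry a large pale domain, and the bars of Bcl2l10 for H3K27ac are taller in the KO.

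The Bcl2a1 copies lie in 1 region of chromosome 9, with starts at 88851758 (Bcl2a1a, plus strand), 89094111 (Bcl2a1b, plus strand) and 88626688 (Bcl2a1d, minus strand) on mm9. Each had H3K4me3, H3K27ac and H3K4me1 over its start, but the first at very few reads. Summed over the copies, H3K4me3 was 42.4 in the WT (18 reads) and 40.2 in the KO (62 reads), with -0.31 (-1.07 to 0.52). H3K27ac was 363 and 341, with -0.17 (-0.44 to 0.12), and H3K36me3 was 22.5 and 26.2, with 0.06 (-0.78 to 0.91). H3K4me1 was 588 (173 reads) in the WT and 492 (831 reads) in the KO, with -0.30 (-0.53 to -0.05), rank 491 from the top among its neighbours and just outside the middle 95% (-0.28 to 0.28).

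Within each mark the intervals of the single copies overlapped, and no difference between copies was tested. For H3K4me1, Bcl2a1a was 289 in the WT and 204 in the KO, with -0.53 (-0.87 to -0.17), rank 498 from the top among its neighbours. Bcl2a1b was 160 and 178, with 0.15 (-0.30 to 0.62), and Bcl2a1d was 139 and 110, with -0.34 (-0.83 to 0.18). The H3K4me1 peak over the Bcl2a1a start, chr9:88846878-88855153, held 221 and 159, with -0.49 (-0.88 to -0.08). Over the other starts H3K4me1 was 156 and 175 at Bcl2a1b, with 0.16 (-0.29 to 0.63), and 122 and 105 at Bcl2a1d, with -0.23 (-0.75 to 0.32). For H3K27ac the copies stood at -0.17 (-0.68 to 0.38), -0.43 (-0.85 to 0.02) and 0.04 (-0.47 to 0.59) in the order Bcl2a1a, Bcl2a1b, Bcl2a1d. The H3K27ac peak over the start was 71.6 and 57.3 at Bcl2a1a, with -0.44 (-1.07 to 0.24), and 129 and 119 at Bcl2a1b, with -0.19 (-0.66 to 0.30). For H3K4me3, Bcl2a1a went from 12 WT reads to 24 KO reads in a library 3.85 times as deep, with -0.99 (-2.00 to 0.09). Its H3K4me3 peak over the start, chr9:88850986-88852089, held 8 WT and 9 KO reads, with -2.15 (-3.49 to -0.72), just outside its neighbours' -2.02 to 1.27. Bcl2a1b had 4 and 26 reads, with 0.58 (-0.84 to 2.24). Bcl2a1d had 2 and 12 reads and a value of 1.55 (-0.36 to 3.57), which became -1.06 when its only peak was centred on neighbouring peaks in place of genes. No direction can be read for Bcl2a1b or Bcl2a1d from so few H3K4me3 reads.

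**Figure D4:**
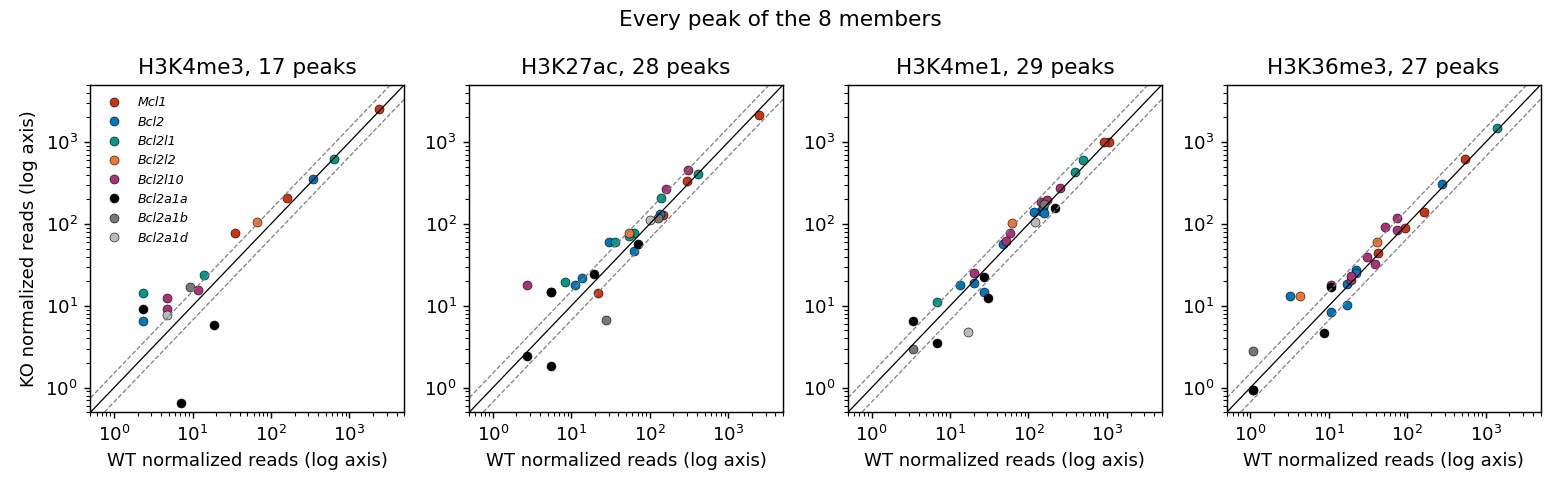
KO against WT normalized reads (both log axes) of all peaks counted to the members, coloured by gene; the solid line marks equal values and the dashed lines a 1.5-fold difference before centring. The strongest Mcl1 peaks and the peaks over the Bcl2l1 start lie close to the line, and the H3K27ac peaks of Bcl2l10 at 306 and 461 and at 162 and 270 lie past the 1.5-fold line.

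H3K4me1 peaks of the members, with those over starts included, overlapped H3K27ac about as often as elsewhere. Of the 29 H3K4me1 peaks counted to the members, 20 (69.0%) overlapped an H3K27ac peak by at least 1 base, where 64.7% of all 81980 H3K4me1 peaks did. Of the 23 that were not over a member's start, 14 did. A peak spanned the start in 8 of 8 members for H3K27ac, 7 for H3K4me3 (all but Bcl2l10), 6 for H3K4me1 (all but Mcl1 and Bcl2l1) and 1 for H3K36me3 (Bcl2l10, inside the end of Gnb5). Consensus peaks are shared by both genotypes, so these counts compare positions and not genotypes. The share of all genes with a peak over the start is not given here, so whether the start counts are unusual was not tested. Some of these peaks were weak: H3K4me3 over the Bcl2a1d and Bcl2a1b starts held 2 and 4 WT reads.

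Genes most like each member were sought among 10715 genes with peaks in all 4 marks, by the Euclidean distance over 8 log2 densities (4 marks in each genotype). These densities take in all peaks counted to a gene, so those of Bcl2 and Bcl2l10 include peaks in Kdsr and Gnb5. Nearest to Mcl1 were BC017643 (distance 0.36), Arfgap1 (0.50) and Pnrc2 (0.52). Nearest to Bcl2l1 were Fam98b (0.20), Map2k1 (0.25) and Mob2 (0.26), and nearest to Bcl2 were Apold1 (0.22), Lrch1 (0.26) and Tmem97 (0.27). Bcl2l10 had Cxcr5 (0.33), 9530080O11Rik (0.48) and Gja5 (0.52). For Bcl2l2 the nearest was Gpatch2 at 0.67 and for Bcl2a1a Unc93a at 1.0, so neither had a gene as close.

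The pro-apoptotic genes that the members oppose were set beside them. Of 11 listed genes, all 11 had H3K4me3 peaks and 0 passed 1.5-fold either way, against 5.07% higher and 5.51% lower of all genes. The median was 0.02, from Bax, a pore-forming effector, at -0.35 (-0.69 to 0.00) to Bak1, the other main effector, at 0.29 (0.09 to 0.50). For H3K27ac, 1 of 10 was higher and 0 lower, against 5.77% and 6.97% of all genes, with a median of 0.01. The highest was the BH3-only gene Bik at 1.91 (0.05 to 3.99) on 2 WT reads, and the lowest another such gene, Bmf, at -0.47 (-0.75 to -0.18). For H3K4me1, 2 of 11 were higher (Hrk and Bik) and 0 lower, against 5.32% and 5.4% of all genes, with a median of 0.01. Hrk, a BH3-only gene, stood highest at 2.23 (-0.06 to 4.29) on 1 WT read and Bax lowest at -0.27 (-0.83 to 0.32). For H3K36me3, 2 of 8 were higher (Bcl2l11 and Bid) and 0 lower, against 3.18% and 3.99% of all genes, with a median of 0.02. Bcl2l11 rested on 1269 normalized reads in the WT and 2349 in the KO, with 0.91 (0.81 to 1.01), and Bmf was lowest at -0.34 (-0.66 to -0.03). No pro-survival member with over 100 WT reads in a mark, a cut used only here, reached the 0.91 of Bcl2l11. Above it, under that cut, lay Bcl2a1d for H3K4me3 (1.55, 2 WT reads) and Bcl2a1b for H3K36me3 (0.98, 1 WT read).

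Other homologues and the turnover genes of MCL1 protein completed the pathway. Of Bcl2l12, Bcl2l13, Bcl2l14 and Bcl2l15, 1 of 3 measured was at least 1.5-fold higher for H3K4me3, against 5.07% of all genes. This was Bcl2l15 (0.77, interval -0.02 to 1.66), and the lowest was Bcl2l13 at -0.15. For the other marks, 0 of these homologues passed in either direction. Their medians were 0.28 (H3K4me3), -0.03 (H3K27ac), 0.10 (H3K4me1) and -0.06 (H3K36me3). In the other marks the highest and lowest were Bcl2l14 at 0.24 and Bcl2l15 at -0.20 (H3K27ac), Bcl2l15 at 0.12 and Bcl2l13 at -0.10 (H3K4me1), and Bcl2l15 at 0.09 and Bcl2l12 at -0.22 (H3K36me3). Of the ligases, deubiquitinase and partner that set MCL1 stability, 0 passed 1.5-fold for H3K4me3, H3K27ac or H3K36me3. For H3K4me1, where 5.4% of all genes were that much lower, 1 of 4 was lower. This was the ligase gene Huwe1, at 129 in the WT (38 reads) and 84.0 in the KO (142 reads), with -0.62 (-1.14 to -0.07), although its H3K4me3 value of 0.41 (0.15 to 0.67) was the highest of the list. The deubiquitinase gene Usp9x was lowest for H3K4me3 at -0.29 (-0.50 to -0.08) and highest for H3K4me1 at 0.41 (-0.29 to 1.19) and H3K36me3 at 0.02 (-0.05 to 0.10). For H3K27ac the ligase gene Btrc was highest at 0.20 (-0.36 to 0.79) and Tpt1, which encodes an MCL1 partner, lowest at -0.35 (-0.51 to -0.18). Btrc was also lowest for H3K36me3, at -0.06 (-0.26 to 0.14). The list's medians were -0.15, 0.07, -0.01 and -0.05 in the order H3K4me3, H3K27ac, H3K4me1, H3K36me3.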

How the data were processed

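Each deposited table lists the consensus peaks of 1 mark on mm9 with 2 columns of normalized read signal, 1 per genotype, as made by the authors. The deposited log2 column is log2(KO/WT) of these signals. The submitters' processing notes name Bowtie2 2.2.3 and Trimmomatic 0.32, then HOMER, DiffBind, MACS2 2.1.0, bcl2fastq 2.16.0 and R 3.1.1, without order or settings, and do not say whether input was subtracted. The other 2 samples, titled as input, were not used.

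Dividing each deposited signal by the lowest of its column gave whole numbers for 100% of peaks (tolerance 0.01), so the lowest value was taken as 1 read. No peak lies under 1 read, so 0 and 1 read cannot be told apart. Signals were summed over the peaks that the tables assign to a gene. The value was log2((KO + 1)/(WT + 1)) minus the running median over the feature itself and the 500 genes (or peaks) nearest in mean signal, because unequal depth puts weak and strong features on different centres. The pseudocount of 1 understates changes of low values. Intervals (95%) are Clopper-Pearson for the share of reads in the KO and exact Poisson for densities; both cover counting error only. With 1 library per group no count model could be fitted, and a difference of at least 1.5-fold (0.585 on the log2 scale) served in its place, with the share of all genes past it. The scripts were tested on simulated data.

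Start sites were computed from deposited distances. Peaks inside a transcript were found from the deposited annotation. The text names all 8 members in every mark, their peaks at the start and the 3 strongest peaks of each mark over all members, the highest and lowest gene of each pathway list, and the genes nearest in density (those of Bcl2a1b are not reported here); Gnb5, Mapk6, Kdsr, Huwe1's H3K4me3 value, the marker genes' H3K27ac values, Bcl2l1's intron peaks and the motifs were picked after their values were seen. The members and lists were chosen with earlier results of these data known. The work used scipy 1.17.1, numpy 2.4.6, pandas 2.3.3, Biopython 1.88 and matplotlib 3.10.9 in Python 3.11.15.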

Additional observations from a re-analysis of the deposited data

How the results depend on the processing

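No paired analysis was possible because each mark and genotype has 1 library, and for the same reason no replicate could be left out. Each member value was recomputed under up to 10 alternatives, and 294 of 305 recomputed values moved by less than their counting interval. The 11 others include Bcl2l1 for H3K27ac, which fell from 0.21 to -0.03 with only peaks within 5 kb of the start and to -0.05 with its strongest peak alone. Bcl2l10 ranged from 0.55 to 1.87 for H3K27ac, the latter within 5 kb of the start, where the deposited distance leaves 1 peak of 1 WT read, and from 0.16 to 0.69 for H3K36me3. Bcl2a1a for H3K4me3 ranged from -2.22 to -0.70. Values on few reads have wide intervals, so large moves can stay inside them and the count above says little about these values. With the strongest peak alone, Bcl2a1d for H3K4me3 went from 1.55 to 0.00 and Bcl2l10 from 0.53 to -0.11, both inside their intervals. Leaving out peaks in other transcripts was chosen after seeing the data. The number of genes past the fold fell from 1910 to 985 (H3K4me3), from 2216 to 1054 (H3K27ac), from 2030 to 973 (H3K4me1) and from 913 to 340 (H3K36me3) when 2-fold was asked, and to 69, 69, 38 and 11 in that order among genes at or above the median mean signal. Centring on the median of all genes changed the split of higher and lower genes from 916 and 994 to 1117 and 2306 (H3K4me3), from 1004 and 1212 to 864 and 2706 (H3K27ac), from 1007 and 1023 to 801 and 2126 (H3K4me1) and from 405 and 508 to 759 and 383 (H3K36me3). Without centring the splits were 935 and 2684 (H3K27ac), 816 and 2106 (H3K4me1) and 736 and 390 (H3K36me3). The H3K36me3 split was 150 and 325 with a pseudocount of 10, and 110 and 291 on reads scaled by library total. For H3K4me3, 20 or fewer WT reads stand behind Bcl2l10 and each Bcl2a1 copy, and no difference of their gene sums was detectable at this depth, while the interval of the Bcl2a1a start peak (-3.49 to -0.72) does not hold 0.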
